A study of Rattus norvegicus with 18 samples.

Results

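Heat shock proteins and J-domain chaperones were followed in the colon of rats given a carcinogen. Members were all probe sets that the array annotation assigns to exactly 1 gene whose symbol begins as a heat shock protein (Hspa, Hspb, Hspd, Hspe, Hsph or Hsp90a), a J-domain protein (Dnaja, Dnajb or Dnajc), a heat shock factor (Hsf) or a Bag protein, leaving out the endoplasmic reticulum genes Hspa5, Dnajb9, Dnajb11 and Dnajc3. This gave 105 probe sets of 67 genes, out of 31042 probe sets and 14217 named genes on the arrays. Hsf2bp, a binding protein of Hsf2, meets the symbol rule but is no heat shock factor. A further 6 probe sets were assigned to several symbols, among them those of Hspa8, Hsp90aa1 and Hspa1b, and were not members. The samples were 18 Affymetrix expression arrays of scraped colonic mucosa from 9 male Sprague Dawley rats, 9 of proximal and 9 of distal colon, with both regions taken from each animal. The diet of all rats was a modified AIN-93G, fed for 10 days before azoxymethane, a colon carcinogen, was injected under the skin at 15 mg/kg, and tissue was taken 6 h later. No untreated animals were among the arrays, so the values show how the regions differ in treated rats and not what the injection did. The 10 rats of the design were split into 2 allocation groups that the labels do not define, and rat 9 was not analysed here.

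Molecular chaperones keep proteins from aggregating and help them to fold, move across membranes or be degraded. Hsp70 proteins bind exposed peptide stretches in a cycle of ATP hydrolysis. J-domain proteins start that cycle and bring the client, and Hsp110 and several Bag proteins release the nucleotide. Hsp90 finishes the folding of signalling proteins, and the Hsp60 and Hsp10 chaperonin encloses clients in the mitochondrial matrix. Under heat or proteotoxic stress, the transcription factor Hsf1 binds repeats of the unit nGAAn and raises a part of this network, and the colon, which meets bacteria and osmotic load, is known for its high content of inducible chaperones.

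Signals are given as the log2 of the deposited intensity plus 16, brought to a common distribution over the 18 arrays, and a difference is the mean of the distal arrays minus that of the proximal arrays, with limma's standard error (SE). A probe set passed at a Benjamini-Hochberg adjusted p below 0.05 over all 21729 probe sets tested. A gene was represented by its tested probe set with the highest mean. Of the members, 82 probe sets of 60 genes were tested, and 23 probe sets were too low. The 7 genes with no tested probe set were Dnajb7, Dnajb13, Hsf2bp, Hspa12a, Hspa1l, Hspb2 and Hspb3. Epithelial markers were high on every array, with a mean log2 signal of 8 genes of 12.64 to 12.96 in proximal and 12.69 to 12.84 in distal colon. The proximal array of rat 3 stood apart in its smooth muscle markers, whose mean log2 signal was 12.10 there, 9.74 and 9.69 on the distal arrays of rats 3 and 7, and 6.37 to 8.51 on the others. The same array was also the highest in markers of endothelium (7.70), neurons and glia (7.70) and, narrowly, enteroendocrine cells (8.93). In epithelial markers it was the lowest (12.64). Some of the members that were high on this array are given also without the proximal arrays of rats 3 and 6. That pair was set with earlier results of these data known, and rat 6 was not high in these markers (7.16 in proximal colon). The distal arrays of rats 3 and 7 stay in that fit.

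Of the 60 member genes tested, 12 were higher in distal colon, led by Hspa4l, Dnajb2, Bag3 and Dnajb4, 7 were higher in proximal colon, led by Dnajb3, Dnajc15 and Hspa13, and 41 did not pass. The share that passed, 31.7%, was close to the background of 30.8% of all 11407 genes, of which 16.2% passed as distal and 14.5% as proximal. By probe set, 16 of 82 passed as distal and 8 as proximal (26.5% of all tested probe sets passed, 14.3% as distal and 12.2% as proximal). The median difference over genes was 0.01 for the members and 0.01 for all genes. Chaperone genes as a whole thus differed between the regions about as often as other genes, and the results lie in which members moved and how. With the deposited scaling, which lowered the median difference of all genes to -0.10, 1 member gene was higher in distal and 7 were higher in proximal colon (of all genes 17.6% passed, 3.95% as distal and 13.6% as proximal). Of the 12 distal members, Dnajb2 alone passed on that scale. Of the 7 proximal members, all but Dnajc19 passed on it (adjusted p = 0.108). With the rat as a block, which compares the samples of each animal, 17 genes were distal and 8 proximal, and 36.8% of all genes passed (19.5% as distal and 17.4% as proximal). In tissue scrapings, fewer cells of a type and less RNA per cell cannot be told apart.

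**Figure D1:**
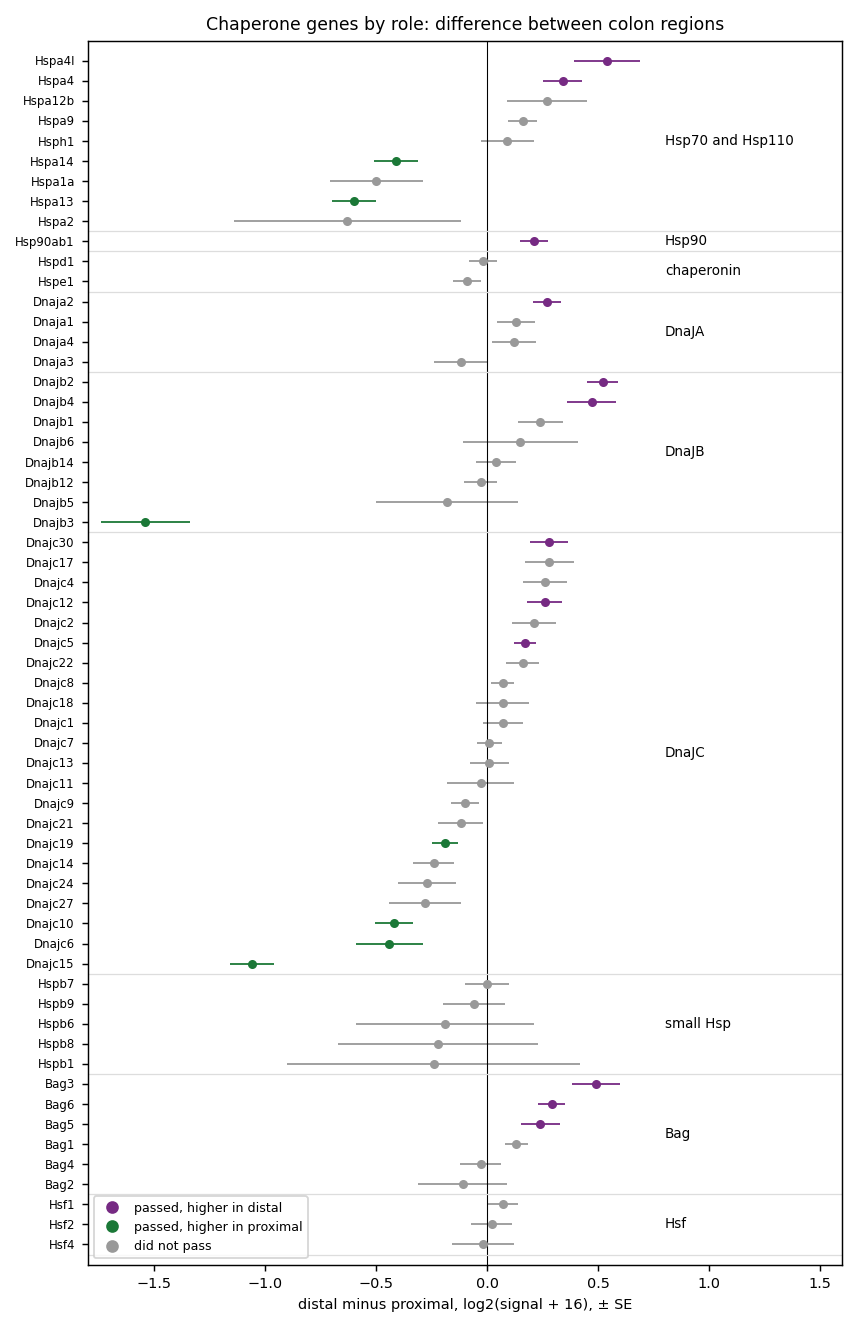
Difference between distal and proximal colon for each of the 60 tested member genes, grouped by role; the x axis is the log2 difference and bars are ± 1 SE. Purple points (12 genes) passed as higher in distal, green points (7 genes) as higher in proximal colon, and grey points did not pass; Dnajb3 at -1.54 and Dnajc15 at -1.06 lie farthest from 0.

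The 2 largest differences among the members were in the J-domain genes Dnajb3 and Dnajc15, both higher in proximal colon. In distal colon the largest were those of the Hsp110 gene Hspa4l (0.54) and the J-domain gene Dnajb2 (0.52). Dnajb3, a DnaJB gene known for its expression in testis, had log2 signals from 8.12 to 9.70 with a median of 8.94 in proximal colon, and from 6.67 to 7.97 with a median of 7.42 in distal colon. All 9 proximal values lay above all 9 distal values. The mean was 8.91 ± 0.50 (SD, n = 9) in proximal and 7.37 ± 0.43 in distal colon, a difference of -1.54 (SE 0.20; 2.90-fold higher in proximal; limma adjusted p = 1.05e-05; 9 of 9 rats). In the RefSeq table of rat genes (GRCr8), the short Dnajb3 gene lies inside the spans of 7 Ugt1a genes, which encode enzymes that conjugate glucuronic acid to drugs and bilirubin. The 2 tested probe sets assigned jointly to 8 Ugt1a symbols differed by -0.01 (adjusted p = 0.919) and -0.16 (adjusted p = 0.185), and neither passed. These were looked up after the Dnajb3 values were seen, and whether any of its signal comes from Ugt1a transcripts was not tested.

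Dnajc15, a J-domain protein of the mitochondrial inner membrane, ranged from 9.70 to 10.29 with a median of 9.88 in proximal colon and from 8.47 to 9.36 with a median of 8.90 in distal colon. The regions again did not overlap in any array. The difference was -1.06 (SE 0.10; 2.08-fold higher in proximal; adjusted p = 1.38e-07; 9 of 9 rats). Among all genes tested, 6.89% had regions that did not overlap, and 3 member genes did: Dnajb3, Dnajc15 and Dnajb2.

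Dnajb2, a cytosolic J-domain protein enriched in neurons that also binds ubiquitin chains, had the lowest adjusted p of the distal members. Its log2 signal lay between 8.59 and 8.97 with a median of 8.72 in proximal colon, and between 9.07 and 9.41 with a median of 9.32 in distal colon. Every distal array was above every proximal array. The difference was 0.52 (SE 0.0709; 1.43-fold; adjusted p = 1.74e-05; 9 of 9 rats), and with the deposited scaling it was 0.43 (adjusted p = 0.0146).

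The other J-domain genes moved by less than 1.50-fold. Of 4 DnaJA genes, which pair with cytosolic or mitochondrial Hsp70, only Dnaja2 passed, at 10.70 to 11.12 in proximal and 10.92 to 11.39 in distal colon (medians 10.86 and 11.13). It was higher in distal colon in 9 of 9 rats, by 0.27 (SE 0.0626; adjusted p = 0.00357). Dnaja1, the heat-inducible member of that class, differed by 0.13 (adjusted p = 0.294) and Dnaja4 by 0.12 (adjusted p = 0.424), and neither passed. Of 8 tested DnaJB genes, Dnajb4 was the other one higher in distal colon, with proximal values from 8.24 to 9.33 (median 8.37) and distal values from 8.79 to 9.13 (median 8.96). The value of 9.33 was the proximal array of rat 3, and the other 8 proximal arrays did not exceed 8.60, below all distal values. The difference of Dnajb4 was 0.47 (SE 0.11; 1.39-fold; adjusted p = 0.00424), and it was 0.61 without the proximal arrays of rats 3 and 6 (adjusted p = 1.09e-06).

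The 22 DnaJC genes, the most varied class, split 3 to 4. In proximal colon Dnajc10, a disulfide reductase of the endoplasmic reticulum, ran from 9.66 to 10.30 (median 9.99), and in distal colon from 9.30 to 9.75 (median 9.54). The ranges touched, but each of the 9 rats had more signal in its proximal sample. The difference was -0.42 (SE 0.0860; 1.34-fold; adjusted p = 0.00115), and a second Dnajc10 probe set also gave -0.42 (adjusted p = 0.0266; up to 0.0735 without rat 1, 2, 4 or 7). Dnajc6, the clathrin-uncoating protein auxilin, was low, from 5.68 to 6.84 in proximal and from 5.22 to 6.09 in distal colon, and differed by -0.44 (adjusted p = 0.0344). Dnajc19, part of the motor that imports proteins into mitochondria, differed by -0.19 (adjusted p = 0.0219). Neither passed without the proximal arrays of rats 3 and 6 (adjusted p = 0.114 for Dnajc6 and 0.0765 for Dnajc19). Dnajc19 also did not pass without rat 3 (0.0528), nor Dnajc6 without rat 1, 3, 6, 7 or 8 (0.0604 to 0.0727).

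In distal colon, 3 DnaJC genes were higher. Dnajc5, the cysteine string protein of secretory vesicles, had 3 tested probe sets, and each passed, with differences of 0.17, 0.34 and 0.51 (adjusted p = 0.0152, 0.0165 and 0.0342). All 3 were higher in distal colon in 9 of 9 rats. With arrays centred on their medians the first of these had an adjusted p of 0.103, without rat 1 the next had 0.0523, and without rat 1, 2, 4, 6, 8 or 10 the last had up to 0.0745. The probe set with the highest mean ran from 10.54 to 10.86 in proximal and from 10.77 to 11.11 in distal colon. Dnajc30, a mitochondrial J-domain protein, differed by 0.28 (8 of 9 rats; adjusted p = 0.0187), and Dnajc12, which assists aromatic amino acid hydroxylases, by 0.26 (8 of 9 rats; adjusted p = 0.0177). Without rat 1 both lost their call (adjusted p = 0.0568 and 0.0604), and Dnajc12 also without rat 6 (0.0578) and without the proximal arrays of rats 3 and 6 (0.0521). The other 15 DnaJC genes did not pass, with differences from -0.28 for Dnajc27 to 0.28 for Dnajc17. With the rat as a block, Dnajc4 (adjusted p = 0.00812), Dnajc17 (0.024) and Dnajc22 (0.0385) of these passed as higher in distal colon.

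**Figure D2:**
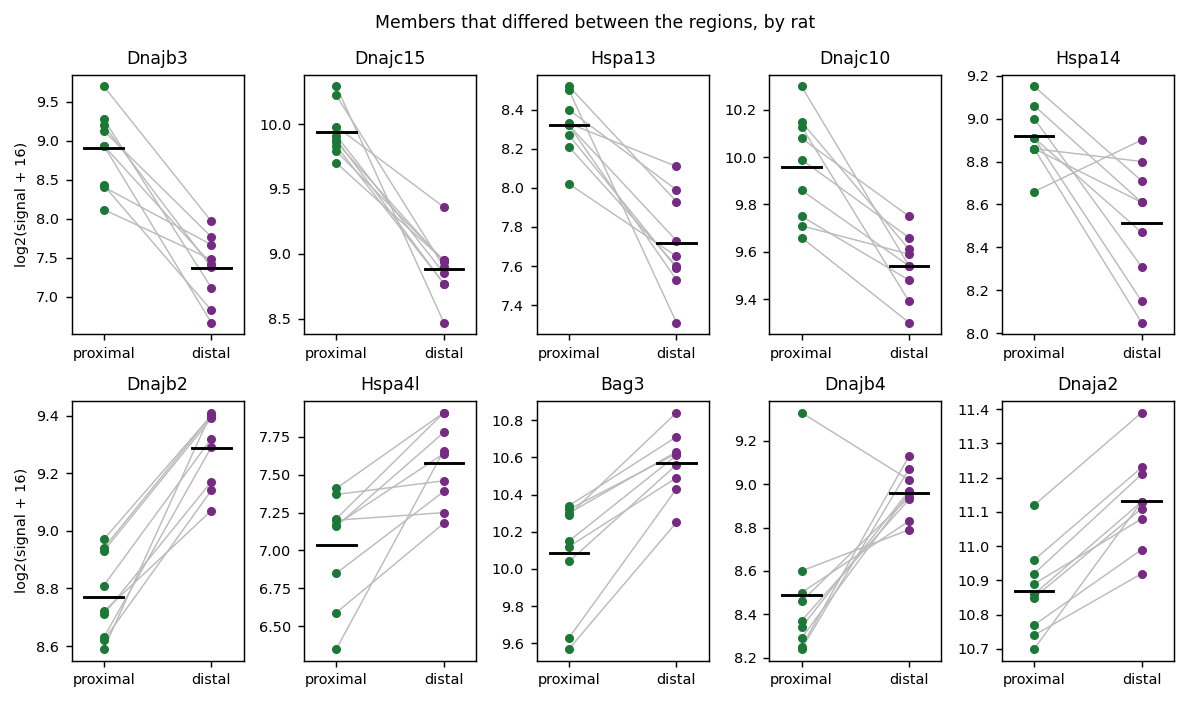
Log2 signal of 10 members that differed between the regions, in proximal and distal colon; each grey line joins the 2 samples of a rat and the black bar is the mean of 9 arrays. The upper row (higher in proximal) runs from Dnajb3 to Hspa14 and the lower row (higher in distal) from Dnajb2 to Dnaja2; in Dnajb4 the single high proximal point is rat 3 at 9.33.

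Among the 9 tested genes of the Hsp70 and Hsp110 families, 2 were higher in each region. Hspa13, an Hsp70-like protein of microsomes without the usual substrate-binding part, ran from 8.02 to 8.52 (median 8.32) in proximal and from 7.31 to 8.11 (median 7.65) in distal colon. It was higher in the proximal sample of 9 of 9 rats, with a difference of -0.60 (SE 0.10; 1.52-fold; adjusted p = 0.000142). Hspa14, the Hsp70 that sits at ribosomes, was between 8.66 and 9.15 (median 8.91) in proximal and between 8.05 and 8.90 (median 8.61) in distal colon. It was higher in proximal colon in 8 of 9 rats, by 1.33-fold (difference -0.41, SE 0.10; adjusted p = 0.00661).

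The Hsp110 genes Hspa4 and Hspa4l, whose products exchange nucleotide on Hsp70, were higher in distal colon. Hspa4l ran from 6.35 to 7.41 (median 7.17) in proximal and from 7.18 to 7.91 (median 7.64) in distal colon, higher in distal in 9 of 9 rats (difference 0.54, SE 0.15; 1.46-fold; adjusted p = 0.00876). Hspa4 ran from 8.01 to 8.60 (median 8.37) and from 8.52 to 8.95 (median 8.74), higher in distal in 8 of 9 rats (difference 0.34, SE 0.0872; adjusted p = 0.00696). The third Hsp110 gene, Hsph1, gave unlike values in its probe sets. The brighter ran from 8.80 to 9.61 in proximal and from 8.87 to 9.82 in distal colon, a difference of 0.09 (adjusted p = 0.629). The dimmer was higher in distal colon in 9 of 9 rats and passed, at 0.43 (SE 0.14; adjusted p = 0.0275), but not without rat 5 or 8 (adjusted p up to 0.0603) or without the proximal arrays of rats 3 and 6 (0.0822).

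Hspa1a, the classical stress-inducible Hsp70, did not pass and was uneven among rats. In proximal colon the values were 8.36, 8.39, 9.86, 8.28, 8.81, 7.74, 8.64, 8.39 and 9.17 for rats 1 to 8 and 10, and in distal colon they were 7.79, 8.35, 8.59, 7.76, 8.27, 8.08, 8.04, 7.90 and 8.39. The proximal sample was the higher in 8 rats and the lower in rat 6. The difference was -0.50 (SE 0.21; adjusted p = 0.0803). It passed with the rat as a block (adjusted p = 0.0116), without rat 6 (0.0379) and without the proximal arrays of rats 3 and 6 (0.0257). With the deposited scaling the difference was -0.59 (0.0499). Whether the probe set also reads Hspa1b, a near-identical copy, was not tested. Hspa9, the mitochondrial Hsp70, was higher in distal colon in 9 of 9 rats by a small difference of 0.16 (SE 0.0652; adjusted p = 0.0712; 0.0117 with the rat as a block; 0.0180 with the mean of its 4 probe sets).

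Hsp90 was represented by Hsp90ab1, the constitutive cytosolic form, at 11.79 to 12.30 (median 11.97) in proximal and 12.04 to 12.45 (median 12.22) in distal colon. The distal sample was the higher in 6 of 9 rats. The difference was 0.21 (SE 0.0638; 1.15-fold; adjusted p = 0.0216), and the call was lost without rat 4, 8 or 10 (0.0601 to 0.0767). Averaging both of its probe sets gave an adjusted p of 0.0569. The mitochondrial chaperonin genes did not pass, and their regions overlapped over most of the range. Hspd1, which encodes Hsp60, ran from 11.75 to 12.10 in proximal and from 11.69 to 12.17 in distal colon (difference -0.02, SE 0.0640; adjusted p = 0.864). Hspe1, which encodes its lid Hsp10, ran from 11.52 to 11.84 and from 11.40 to 11.91 (difference -0.09, SE 0.0626; adjusted p = 0.291).

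Of the 6 Bag genes, 3 were higher in distal colon and none in proximal colon, where 16.2% and 14.5% of all genes passed. Bag3, which hands damaged proteins to autophagy together with Hspb8, ran from 9.57 to 10.34 (median 10.15) in proximal and from 10.25 to 10.84 (median 10.61) in distal colon. Rats 1 and 6 were the lowest in both regions, and each of the 9 rats was higher in its distal sample. The difference was 0.49 (SE 0.11; 1.40-fold; adjusted p = 0.00194). Bag6, which guards tail-anchored proteins, was higher in distal colon in 9 of 9 rats by 0.29 (SE 0.0619; adjusted p = 0.00181). A second, dimmer Bag6 probe set gave -0.23 (adjusted p = 0.637), and the mean of both gave 0.03 (adjusted p = 0.920). Bag5 differed by 0.24 (adjusted p = 0.0414), but did not pass without rat 2, 5, 6, 7, 8 or 10 (0.0620 to 0.119) or without the proximal arrays of rats 3 and 6 (0.104). Bag1, Bag2 and Bag4 did not pass, with differences of 0.13, -0.11 and -0.03.

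None of the 3 heat shock factors passed with its brightest probe set. Hsf1, the main stress-activated factor, ran from 8.54 to 8.75 in proximal and from 8.41 to 8.89 in distal colon (difference 0.07; adjusted p = 0.501). Hsf2, a factor active in development, differed by 0.02 (adjusted p = 0.913), and Hsf4 by -0.02 (adjusted p = 0.927). Of the dimmer Hsf2 probe sets, 1 gave 7.05 to 7.45 in proximal and 7.52 to 7.88 in distal colon. These ranges did not overlap (as for 5.22% of all tested probe sets), and it passed at 0.35 (SE 0.0693; adjusted p = 0.000895), while the other gave a difference near 0 (adjusted p = 0.977). The Hsf2 probe sets therefore do not give 1 answer for the gene.

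A list of 12 genes, chosen as textbook targets of Hsf1, was followed as the heat-inducible part of the network, and 9 were tested. The list includes Hsp90ab1, named above as the constitutive form. Bag3 and Hsp90ab1 were higher in distal colon, none was higher in proximal colon, and 7 did not pass, where 30.8% of all genes passed, 16.2% as distal. The median difference of the list was 0.09. With the deposited scaling none was higher in distal colon and Hspa1a was higher in proximal colon. Dnajb1, the main J-domain partner of inducible Hsp70, ran from 10.02 to 10.88 in proximal and from 10.46 to 10.97 in distal colon, with the distal sample higher in 8 of 9 rats. Its difference was 0.24 (SE 0.10; adjusted p = 0.0769; 0.0299 with the rat as a block; 0.0415 without rat 10).

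The starts of 5 heat-inducible genes are shown because they hold matches to the sequence that Hsf1 is known to bind. Of the same list, Hspd1 and Hspb1 also had matches, and Hspa1a and Hsp90ab1 had none in their windows. Sequences are from RefSeq (GRCr8), 250 bases before the start site to 25 bases after it, and capitals mark each match to GAANNTTC or TTCNNGAA, the ways in which a pair of nGAAn units can face each other. These motifs read the same on both strands and can overlap. Hspe1 is chr9:64084077-64084351 on the plus strand, Hsph1 is chr12:10427118-10427392 on the plus strand, Dnaja1 is chr5:60638154-60638428 on the plus strand, Dnajb1 is chr19:41431117-41431391 on the minus strand and Bag3 is chr1:192533210-192533484 on the plus strand.
Hspe1: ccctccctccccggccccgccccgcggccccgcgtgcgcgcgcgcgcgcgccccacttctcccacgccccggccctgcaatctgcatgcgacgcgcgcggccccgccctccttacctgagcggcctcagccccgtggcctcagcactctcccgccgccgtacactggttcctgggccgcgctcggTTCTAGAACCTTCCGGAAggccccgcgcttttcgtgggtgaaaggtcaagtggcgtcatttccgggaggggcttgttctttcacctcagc
Hsph1: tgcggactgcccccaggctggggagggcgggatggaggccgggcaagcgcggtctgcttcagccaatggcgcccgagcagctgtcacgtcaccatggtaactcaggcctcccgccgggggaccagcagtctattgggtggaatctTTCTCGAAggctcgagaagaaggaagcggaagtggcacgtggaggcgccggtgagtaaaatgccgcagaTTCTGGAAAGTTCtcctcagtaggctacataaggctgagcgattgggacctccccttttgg
Dnaja1: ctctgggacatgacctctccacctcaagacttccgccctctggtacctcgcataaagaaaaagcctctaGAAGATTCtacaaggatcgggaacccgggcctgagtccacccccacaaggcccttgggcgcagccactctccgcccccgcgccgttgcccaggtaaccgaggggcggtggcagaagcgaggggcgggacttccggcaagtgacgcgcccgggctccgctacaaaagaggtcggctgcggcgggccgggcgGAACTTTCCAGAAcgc
Dnajb1: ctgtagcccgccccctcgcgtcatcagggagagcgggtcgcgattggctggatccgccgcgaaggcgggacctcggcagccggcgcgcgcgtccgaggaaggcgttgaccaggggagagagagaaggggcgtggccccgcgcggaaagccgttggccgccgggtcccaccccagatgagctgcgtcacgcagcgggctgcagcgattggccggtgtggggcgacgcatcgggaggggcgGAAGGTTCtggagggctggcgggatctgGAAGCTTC
Bag3: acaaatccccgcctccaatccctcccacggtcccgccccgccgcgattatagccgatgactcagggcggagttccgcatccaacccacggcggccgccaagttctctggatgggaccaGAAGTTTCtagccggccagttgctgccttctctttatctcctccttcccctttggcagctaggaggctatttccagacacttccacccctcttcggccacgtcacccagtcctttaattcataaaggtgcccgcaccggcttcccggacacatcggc

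In Hspe1, Hsph1 and Dnaja1, matches merge into runs of at least 3 alternating units, GAANNTTC followed by a further NNGAA, on either strand, and in Hspe1 2 such matches overlap. Of 54 windows of 300 bases that RefSeq gave for 53 of the 67 member genes, 4 held this longer motif (7.41%: Dnaja1, Hspd1, Hspe1 and Hsph1), against 0.798% of 33469 rat promoters of the same length. Hspd1 and Hspe1 run in opposite directions from start sites 290 bases apart, and their windows share 211 bases that hold the match, so they are not independent. GAANNTTC was in 12 windows (22.2%, against 8.59%) and TTCNNGAA in 9 (16.7%, against 8.77%), and 15 (27.8%, against 15.9%) held either. A match is a stretch of letters and no measured binding. Of the 4 genes with the longer motif, Dnaja1 differed between the regions by 0.13, Hspd1 by -0.02, Hspe1 by -0.09 and Hsph1 by 0.09, and none passed. Of the members that led either region, Hspa4l and Bag3 each had 1 match to a shorter motif, and Dnajb3, Dnajb2 and Hspa13 had none. The match of Hspa4l lay 38 bases after its start site. Dnajb4 and Dnajc15 had no window to search.

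**Figure D3:**
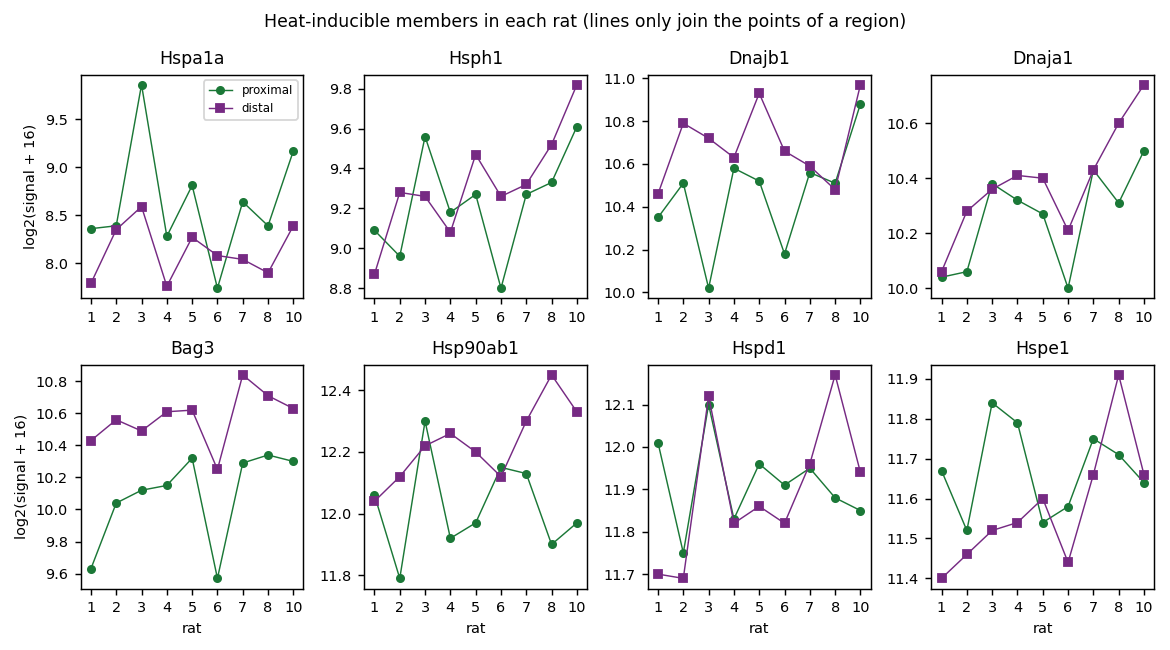
Log2 signal of 8 members of the heat-inducible list, Hsp90ab1 included, in each of the 9 rats, proximal in green and distal in purple. Lines only join the points of a region, and rats have no order. Bag3 is higher in the distal sample of every rat, and Hspa1a peaks at 9.86 in the proximal sample of rat 3, where Dnajb1 is at its lowest proximal value of 10.02.

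Whether inducible chaperones varied together among rats was asked in 9 relations, each over 9 rats with exact permutation tests of the pairings, two-sided, adjusted over the 9. In proximal colon Hspa1a correlated with Hsph1 (Pearson r = 0.86, exact p = 0.00255, adjusted 0.0230; Spearman rho = 0.77, exact p = 0.0214, adjusted 0.0642). Without rats 3 and 10, which lie farthest from the median of Hspa1a, r was 0.78. No other relation passed after adjustment, although with the deposited scaling Hspd1 with Hspe1 did, at r = 0.89 in proximal (exact adjusted p = 0.00822) and 0.93 in distal colon (exact adjusted p = 0.00238). That scale keeps differences in overall signal between arrays (trimmed means of 211.2 to 342.4), which all genes of an array share. Their part in these 2 values was not tested. In distal colon Hspa1a with Hsph1 gave r = 0.50 (rho 0.45; exact p = 0.169, adjusted 0.239), and 0.64 without rats 3 and 4. Hspa1a with Dnajb1 gave r = -0.07 in proximal colon (rho 0.12; exact p = 0.85), where rat 3 combines the highest Hspa1a with the lowest Dnajb1, and 0.77 without rats 3 and 10. In distal colon this pair gave 0.72 (rho 0.78; exact p = 0.0295, adjusted 0.0664), and 0.94 without rats 3 and 4. Hspd1 with Hspe1, which share a promoter region, gave 0.49 in proximal colon (rho 0.33; exact p = 0.186, adjusted 0.239), and -0.33 without rats 2 and 3. In distal colon they gave 0.75 (rho 0.72; exact p = 0.0165, adjusted 0.0664), and 0.91 without rats 3 and 8. Between the regions, r was 0.72 for Hspa1a (rho 0.77; exact p = 0.0238, adjusted 0.0664), and 0.25 without rats 3 and 10. It was 0.37 for Dnajb1 (rho 0.23; exact p = 0.336) and 0.54 for Hsph1 (rho 0.65; exact p = 0.125).

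The small heat shock proteins bind unfolding clients without ATP and are abundant in muscle. No difference between the regions passed in any of the 5 tested genes of this kind among the members. Hspb1, which encodes Hsp27, ran from 5.08 to 10.74 (median 6.18) in proximal and from 4.47 to 8.38 (median 6.05) in distal colon, with a difference of -0.24 (SE 0.66; adjusted p = 0.829). The top value was again the proximal array of rat 3, and the other proximal arrays ended at 7.03. In distal colon rats 7 and 3, at 8.38 and 8.30, stood above the rest, which ended at 6.92. Hspb6 was at 10.67 on the proximal array of rat 3 and at 7.03 to 7.62 on the other proximal arrays. Hspb8, the partner of Bag3, was at 10.37 there and at 5.71 to 6.33 on the others. The difference of Hspb6 was -0.19 (SE 0.40; adjusted p = 0.774) and that of Hspb8 -0.22 (SE 0.45; adjusted p = 0.764). With errors this wide, a real difference in these genes could be missed.

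The proximal array of rat 3, highest in Hspb1, Hspb6 and Hspb8, was also the highest in smooth muscle markers. It was the highest in endothelial, neuron and glia, and enteroendocrine markers as well. Hspb9 did not share this, at 6.02 on that array and at its lowest value of 5.70 on the distal array of rat 3. In distal colon Hspb8 was at 6.48 in rat 3, below its level in rat 8. All 10 markers, from Acta2 to Lmod1, were highest on the proximal array of rat 3, where Actg2 was at 13.50, against 10.29 and 11.20 on the distal arrays of rats 3 and 7 and 5.42 to 8.98 on the other 15. Of the 6 tested small heat shock protein probe sets, 4 were highest there. Of all 82 tested member probe sets, 18 were (22.0%), against 12.1% of all tested probe sets. Chosen after the values were seen, Hspa2 (9.68 against 4.61 to 5.94 on the other proximal arrays), Bag2 (8.98 against 6.88 to 7.54) and Dnajb5 (8.47, with a proximal median of 5.91) showed the same array on top. Their differences of -0.63, -0.11 and -0.18 became -0.18, 0.02 and 0.16 when the proximal arrays of rats 3 and 6 were left out, with none past the threshold in either fit. The probe sets of Hspb7 disagreed, since the dimmer was highest on this array, at 9.0, and the brighter was lowest there among the proximal arrays, at 7.39. Without the proximal arrays of rats 3 and 6, the differences of Hspb1, Hspb6 and Hspb8 were 0.16, 0.21 and 0.21, of the opposite sign, and still did not pass (adjusted p = 0.860, 0.567 and 0.330). Without the 3 arrays of highest smooth muscle markers they were -0.30, -0.12 and 0.14, and again did not pass (adjusted p = 0.581, 0.532 and 0.453). The part of muscle in these values was not tested beyond this, and that of the other cell types was not tested. None of the 10 smooth muscle markers passed between the regions.

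**Figure D4:**
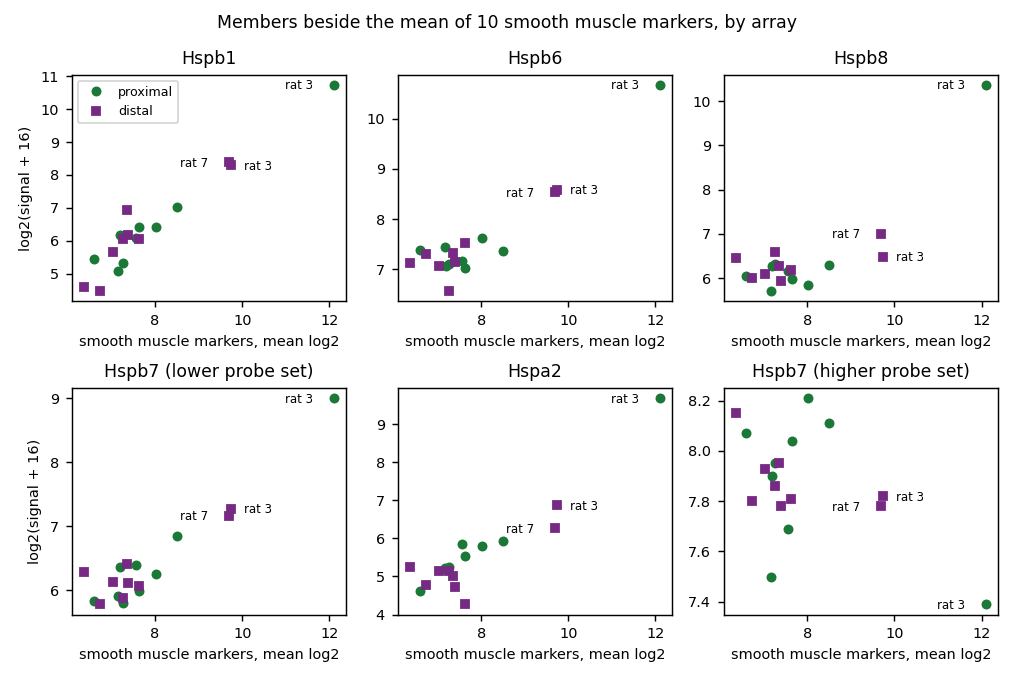
Log2 signal of 5 members (Hspb7 by both probe sets) on the y axis against the mean log2 signal of 10 smooth muscle markers on the x axis, for 18 arrays; circles are proximal and squares distal. The proximal array of rat 3 lies at a marker mean of 12.10 and is highest in every panel but the last, where the brighter Hspb7 probe set is lowest at 7.39.

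Several members varied together in the proximal and distal samples of a rat. Over 9 rats, the correlation of proximal with distal signal was at least 0.8 for 15 of the 82 tested member probe sets (18.3%), against 4.95% of all tested probe sets, and its median was 0.37 against 0.27. Without rat 3 the count was 10 (12.2%, against 4.50%), with medians of 0.27 and 0.19. These are descriptions over probe sets, some of which share a gene. Dnajb6, which holds back the aggregation of polyglutamine proteins, showed it most plainly. In proximal colon its values were 10.15, 10.14, 10.37, 9.07, 10.54, 10.27, 10.92, 10.22 and 9.21 for rats 1 to 8 and 10, and in distal colon 10.43, 10.69, 10.29, 9.19, 10.35, 10.35, 11.17, 10.44 and 9.30. Rats 4 and 10 were low in both regions, rat 7 was highest in both, and the 6 others lay between. The regions differed by 0.15 (SE 0.26; adjusted p = 0.726). Dnaja3, a mitochondrial J-domain protein picked here after its values were seen, was highest in rats 2 and 7 and lowest in rat 3 in both regions. Hspa9 was lowest in rat 1 in both regions, at 10.54 and 10.57.

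**Figure D5:**
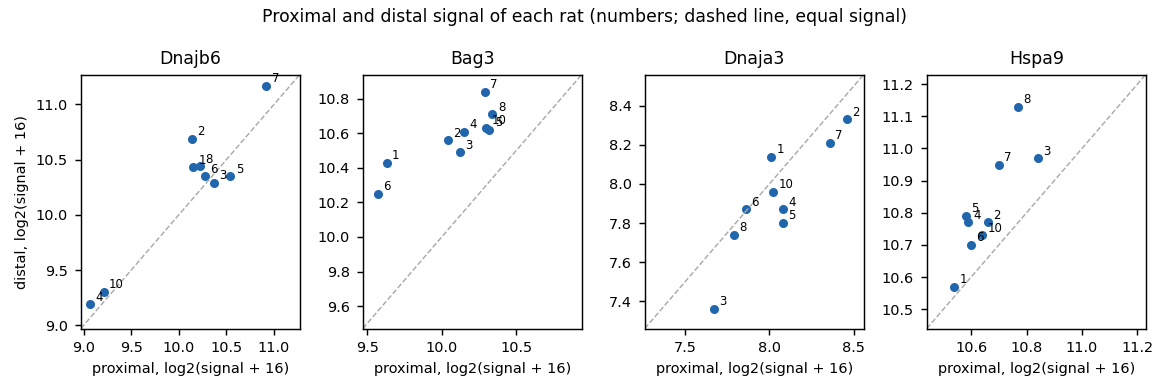
Proximal (x axis) against distal (y axis) log2 signal of Dnajb6, Bag3, Dnaja3 and Hspa9, each point a rat with its number; the dashed line marks equal signal. For Dnajb6, rats 4 and 10 lie apart between 9.07 and 9.30 on both axes, and for Bag3 and Hspa9 all 9 rats lie above the line.

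Genes that work with these chaperones were followed by lists, with 30.8% of all genes passing as the background, 16.2% as distal and 14.5% as proximal. Of 21 tested partners of Hsp90 and Hsp70, 6 were higher in distal colon and none in proximal colon. They were Ahsa1, which speeds the Hsp90 ATPase (0.33, adjusted p = 0.000861), Stub1, a ubiquitin ligase on Hsp70 clients (0.28, adjusted p = 0.000811), Cdc37, which loads kinases (0.22), Fkbp4 (0.29), Tomm34 (0.41) and Ttc1 (0.28). The median difference of this list was 0.11. It also held Cryab, a small heat shock protein outside the symbol rule (-1.10, SE 0.53; limma adjusted p = 0.132). Cryab passed as proximal without the 3 arrays of highest smooth muscle markers (0.00106) and with the rat as a block (0.0217). With that block Fkbp5 (-0.30; 0.032) and Chordc1 (-0.20; 0.0409) also passed as proximal, and Ppid (0.17; 0.0426) as distal. Of 14 tested genes of ubiquitin and the proteasome, 6 were higher in distal colon and none in proximal: Psma4, Psmb4, Psmc1, Psmc4, Psmd1 and the autophagy receptor Sqstm1, by 0.16 to 0.25. With the deposited scaling none of the genes of these lists passed. Psma4 (adjusted p = 0.0794), Psmc4 (0.115) and Sqstm1 (0.0903) also lost their calls with arrays centred on their medians, and the others kept theirs. Without the proximal arrays of rats 3 and 6, Psma4 (0.052) and Psmc4 (0.0978) did not pass.

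Of the 12 tested genes of the cytosolic chaperonin and its helper prefoldin, Cct3 (0.27) and Cct8 (0.35) were higher in distal and Cct6a (-0.27) in proximal colon, and none passed with the deposited scaling. With arrays centred on their medians Cct6a lost its call (limma adjusted p = 0.135), and Cct3 and Cct8 kept theirs. Of the 15 tested mitochondrial chaperones and proteases, Clpx, the unfolding subunit of a matrix protease, was higher in distal colon in 9 of 9 rats (0.44, SE 0.0457; adjusted p = 5.36e-07), as was Lonp1 (0.24). Dnajc15, Dnajc19 and Clpb (-0.27) were higher in proximal colon. With the deposited scaling Clpx (adjusted p = 0.0257) and Dnajc15 passed, and Lonp1 (0.482), Clpb (0.0553) and Dnajc19 did not. Clpb also lost its call with arrays centred on their medians (0.055) and without the proximal arrays of rats 3 and 6 (0.0894). Of 14 endoplasmic reticulum chaperones, 5 were higher in distal colon (Hspa5 at 0.24, Hsp90b1 at 0.29, Dnajc3 at 0.22, Manf at 0.28 and Creld2 at 0.42), and Pdia3, a disulfide isomerase, was higher in proximal colon (-0.57, SE 0.0904; adjusted p = 9.04e-05). With the deposited scaling Creld2 alone passed as distal (adjusted p = 0.0445), and Pdia3 and Pdia6 passed as proximal. Dnajc3 also lost its call with arrays centred on their medians (0.0625), where the other distal genes of this list kept theirs.

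Cell type markers moved between the regions for some types. Of 5 enteroendocrine markers, Chga, Chgb and Neurod1 were higher in proximal colon, and the mean log2 signal of the list was 8.10 to 8.93 in proximal and 6.72 to 7.54 in distal colon, without overlap. The epithelial genes Krt20 (-0.49) and Vil1 (-0.43) were higher in proximal colon, while the other 6 of that list did not pass. The part of these cell types in the member differences was not tested. None of the markers of endothelium (5 tested), neurons and glia (3) or leukocytes (6) passed.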

How the data were processed

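Values were signal intensities per probe set that the authors made with MAS5, per the submitters' processing notes, and deposited on a linear scale. The sources used here give neither the MAS5 version nor a scaling target. The deposited intensities were not on a common scale, since their trimmed mean (2% off each end) ran from 211.2 to 342.4 per array. From them, log2(intensity + 16) was computed and quantile-normalized for 31042 probe sets, leaving out 57 controls. This removes any overall shift between regions, and the pseudocount understates the fold of dim genes. Probe sets in the lowest 30% by mean (log2 below 5.54) were not tested. Distal minus proximal was fitted with limma 3.58.1 in R 4.3.3 (lmFit, eBayes with an intensity trend), two-sided, without a block. On simulated data with 200 of 21729 probe sets changed by 1 on the log2 scale, 180 were recovered and 4 unchanged ones called. The simulated arrays were independent and smaller changes were not simulated, so this does not show how often smaller differences are found. The rat numbers pair arrays of the same animal; deviations from the region means correlated at 0.000945 to 0.569 within a rat (median 0.226) and at a median of -0.0308 between rats. Arrays of 1 region are separate animals, and their number limits the precision.

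Symbols came from the array annotation, which can be old: it gave 1 symbol for 20826 probe sets and several for 436, while 9780 stayed unnamed here. All 67 member symbols are in the RefSeq table (GRCr8). Named with values were a fixed set of classical chaperones and, in each role group, up to 6 called members with the largest difference and 2 with the highest signal, 35 genes in all; other names are given as probe set checks, as ends of a range or as stated. The members, lists, tests and alternatives, including leaving out the proximal arrays of rats 3 and 6, were chosen with earlier results of these data known. Alternatives were other scalings, pseudocounts (1 and 64), filters, the rat as a block, arrays left out and probe set means. Agreement between regions without rat 3 was added after seeing the data.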

Additional observations from a re-analysis of the deposited data

Results flagged for a closer look

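Among the 35 named members, 70 groups of 9 arrays were checked for a single array far from the rest, where chance alone marks about 1 in 20 groups, and 7 were found. The proximal array of rat 3, which carries the highest markers of smooth muscle, endothelium, neurons and glia, and enteroendocrine cells, accounts for 5 of them. It was highest for Hspb1 (10.74, others 5.08 to 7.03), Hspb6 (10.67, others 7.03 to 7.62), Hspb8 (10.37, others 5.71 to 6.33) and Dnajb4 (9.33, others 8.24 to 8.60), and lowest for Dnajc5 (10.54, others 10.72 to 10.86). On the distal array of rat 3, Bag1 was highest at 10.17 against 9.85 to 9.98 on the others; that array also had the highest ratio of 3' to 5' signal of the Actb control, 3.52. On the distal array of rat 6, Hspb7 was highest at 8.15 against 7.78 to 7.95.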

How the results depend on the processing

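The deposited scaling moved the most, leaving 1 member gene and 1 member probe set higher in distal colon, where 12 and 16 had passed, and raising Hspd1 with Hspe1 over rats to r = 0.89 in proximal (exact adjusted p = 0.00822) and 0.93 in distal colon (exact adjusted p = 0.00238). On that scale, differences in overall signal between arrays remain in both genes, and their part in these r was not tested. With the rat as a replicate block, 17 genes passed as distal and 8 as proximal (19.5% and 17.4% of all genes), all 19 calls were kept, and Hspa1a, Dnajb1 and Hspa9 passed among the named members. Of the other members, Dnajc4, Dnajc17 and Dnajc22 then passed as distal. Leaving out each rat in turn gave 10 to 14 genes and 12 to 19 probe sets higher in distal, and 6 to 7 genes and 6 to 8 probe sets higher in proximal colon. With arrays centred on their medians, Dnajc5 (adjusted p = 0.103) and Dnajc19 (0.191) lost their calls, and without a filter Bag5 did (0.0526). Over every alternative, Dnajb2 kept its call in distal colon, and Dnajb3, Dnajc15, Dnajc10, Hspa13 and Hspa14 kept theirs in proximal colon. None of the 19 called member genes changed sign. Among the 35 members followed under every alternative, signs turned only for differences that did not pass, and the cause was not tested: with the deposited scaling Dnaja4 (-0.00548), Hsf1 (-0.02), Hsf2 (-0.07) and Hspb7 (-0.11); without the proximal arrays of rats 3 and 6 Hspb1 (0.16), Hspb6 (0.21), Hspb7 (-0.12), Hspb8 (0.21) and Hspd1 (0.00696); without the 3 arrays of highest smooth muscle markers Hspb7 (-0.04) and Hspb8 (0.14). Hspb7 also turned with a pseudocount of 64 (-0.000792) and with probe set means (-0.07). Leaving out single rats turned the sign of Hsf2 (range -0.06 to 0.09), Hspb1 (-0.51 to 0.04), Hspb6 (-0.40 to 0.05), Hspb7 (-0.08 to 0.04), Hspb8 (-0.37 to 0.24) and Hspd1 (-0.06 to 0.02). Members near the filter, such as Dnajc6, rest on dim signal.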
